A study of Mus musculus with 2 samples.

Results

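The platelet-derived growth factor (PDGF) genes were followed across single cells of the mouse embryo. They were the 4 ligands Pdgfa, Pdgfb, Pdgfc and Pdgfd and the 2 receptors Pdgfra and Pdgfrb, chosen by symbol as 6 of the 32285 genes counted. Embryos at embryonic day 14 were decapitated and eviscerated, and cells of the trunk and limbs that carried tdTomato fluorescence were sorted and sequenced from the 3′ end of their transcripts with droplet barcodes. Both groups carried Myf5-Cre, a Cre recombinase driven by the promoter of the muscle factor Myf5 and bred from C57BL/6J transgenic mice, and the Rosa26-LSL-tdtomato reporter that this recombinase switches on, so every value describes cells inside the tdTomato gate. One group, SRSF2f/f/Myf5-Cre/tdT, had both alleles of the splicing factor gene Srsf2 floxed. Its control, SRSF2f/w/Myf5-Cre/tdT, had 1 floxed and 1 wild-type allele, so the controls also carried the recombinase, the reporter and a floxed allele. Each group was 1 library described as 1 embryo sample, with no replicate, and whether embryos were pooled is not given in the sources used here.

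The genotype labels of the 2 libraries were in conflict. The library whose sample title is SRSF2f/f had a sequencing summary marked WT, and the library titled SRSF2f/w had one marked KO. Srsf2 itself, counted in unique molecular identifiers (UMIs) that each tag 1 captured transcript and scaled to 1000000 UMIs (CPM), stood at 219 CPM in the library labelled f/f and at 153 in the library labelled f/w, a log2 ratio of 0.52 (95% interval 0.49 to 0.54). The level was therefore higher in the library titled with 2 floxed alleles, although 3′ tags check a deletion only if they lie in the deleted part, which is not given in the sources used here. Muscle progenitor-like and differentiating muscle-like cells, defined below, made up 9.33% and 7.23% of kept cells labelled f/f but 0.425% and 0.532% of those labelled f/w. The file marks and the Srsf2 level ran against the titles, and which assignment is right was not settled. The libraries are called "labelled f/f" and "labelled f/w" below, after their titles, and every direction between them would turn around under the opposite assignment.

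PDGFs are secreted dimers that act through a pair of receptor tyrosine kinases. PDGF-A and PDGF-C act mainly through the receptor encoded by Pdgfra, a receptor of embryonic mesenchyme, PDGF-B binds both receptors, and PDGF-D acts mainly through the one encoded by Pdgfrb. PDGF-B from endothelium is known to recruit pericytes, the mural cells that wrap small vessels and carry Pdgfrb. PDGF-C and PDGF-D are made as latent proteins that must be cut by proteases before they can bind.

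The deposited counts held 156093779 UMIs in 15268 barcodes of the library labelled f/f and 128116615 UMIs in 12498 barcodes of the library labelled f/w. After filtering, 12523 and 10345 cells were kept, with medians of 10751 and 9480 UMIs per cell. The libraries had 74 barcode sequences in common, 50 of them among kept cells of both. Cells took a class from fixed UMI limits on marker genes, none of them a PDGF gene, and 12 classes reached 50 cells in both libraries. Every check gene of a checked class that the limits did not use was detected in it, apart from 1 of 4 in the 26 erythroid-like cells labelled f/w. Neural progenitor-like and megakaryocyte-like cells of both libraries and the 17 mast-like cells labelled f/f were too few to be checked. The check genes were highest in their own class in most cases, but only 2 of 4 were for the fibroblast-like class labelled f/f, 1 of 4 for the one labelled f/w, 2 of 4 for mural-like cells labelled f/w (Mcam was higher in Schwann-like and Acta2 in differentiating muscle-like cells), and 2 of 4 for muscle progenitor-like cells of both libraries, whose Cdh15 and Des were higher in differentiating muscle-like cells. Muscle progenitor-like cells numbered 1169 in the library labelled f/f and 44 in the library labelled f/w, and differentiating muscle-like cells 905 and 55. No class gate was passed by 2647 cells (21.1%) and 2996 cells (29.0%), which stayed unassigned. All levels below are CPM, relative to all UMIs of the same cells, and all intervals are exact 95% intervals that cover counting error only. With 1 library a group no test between the groups was possible.

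In GRCm38 coordinates Pdgfa (ENSMUSG00000025856) lies on chromosome 5 from 138976014 to 138997370 on the minus strand and Pdgfra (ENSMUSG00000029231) on the same chromosome from 75152292 to 75198215 on the plus strand. Pdgfb (ENSMUSG00000000489) lies on chromosome 15 from 79995874 to 80014977 on the minus strand, Pdgfc (ENSMUSG00000028019) on chromosome 3 from 81036416 to 81214040 on the plus strand, and Pdgfd (ENSMUSG00000032006) on chromosome 9 from 6168584 to 6378850 on the plus strand. Pdgfrb has the identifier ENSMUSG00000024620. Genes on the opposite strand overlap 5 of these members, among them the antisense gene 6330403L08Rik, which shares 2315 bases with Pdgfa and stood at 2.74 and 2.77 CPM in the muscle progenitor-like cells labelled f/f and f/w. The other opposite-strand genes with counts did not pass 0.964 CPM in any of the 5 sets of cells looked at. Whether the counting used the strand is not given in the sources used here.

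RefSeq start windows (GRCm38.p6) were found for 4 members. The 250 bases before the start are printed for the 3 members whose window touches no annotated exon, to show the sequence in front of a ligand read in muscle and cartilage (Pdgfc), a rare ligand of mesenchyme and vessels (Pdgfd) and the mesenchymal receptor (Pdgfra). Capitals mark a TATA box (TATAAA, searched on both strands). The windows are chr3:81036166-81036415 on the plus strand for Pdgfc, chr9:6168236-6168485 on the plus strand for Pdgfd and chr5:75152001-75152250 on the plus strand for Pdgfra.
Pdgfc: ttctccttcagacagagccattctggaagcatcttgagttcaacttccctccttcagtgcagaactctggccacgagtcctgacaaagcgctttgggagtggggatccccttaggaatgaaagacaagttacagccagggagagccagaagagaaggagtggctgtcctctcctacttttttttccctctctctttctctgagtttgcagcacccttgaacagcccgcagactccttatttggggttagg
Pdgfd: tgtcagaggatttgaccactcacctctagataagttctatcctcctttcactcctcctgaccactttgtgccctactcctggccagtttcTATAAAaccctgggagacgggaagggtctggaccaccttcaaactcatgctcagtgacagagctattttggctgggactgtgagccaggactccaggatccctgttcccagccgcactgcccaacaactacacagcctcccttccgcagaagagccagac
Pdgfra: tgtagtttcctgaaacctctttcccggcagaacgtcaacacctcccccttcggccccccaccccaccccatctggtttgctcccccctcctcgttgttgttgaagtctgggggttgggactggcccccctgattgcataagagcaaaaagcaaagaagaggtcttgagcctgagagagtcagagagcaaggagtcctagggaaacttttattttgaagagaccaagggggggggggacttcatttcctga
Of these 3, the Pdgfd window held a TATA box, as did 12.4% of all 32851 windows of this length. None of the 3 held a GC box (GGGCGG), found in 32.7% of all windows, or the E-box CAGCTG, the form bound by muscle factors, found in 4271 of the 32851. The 2 windows of Pdgfa, which overlap annotated exons and are not printed, held 1 and 2 GC boxes, no TATA box and no CAGCTG, and were 66.4% and 72.4% G or C against 50.8% to 54.4% in the 3 printed windows. A match in these letters is a description and not a binding site.

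**Figure D1:**
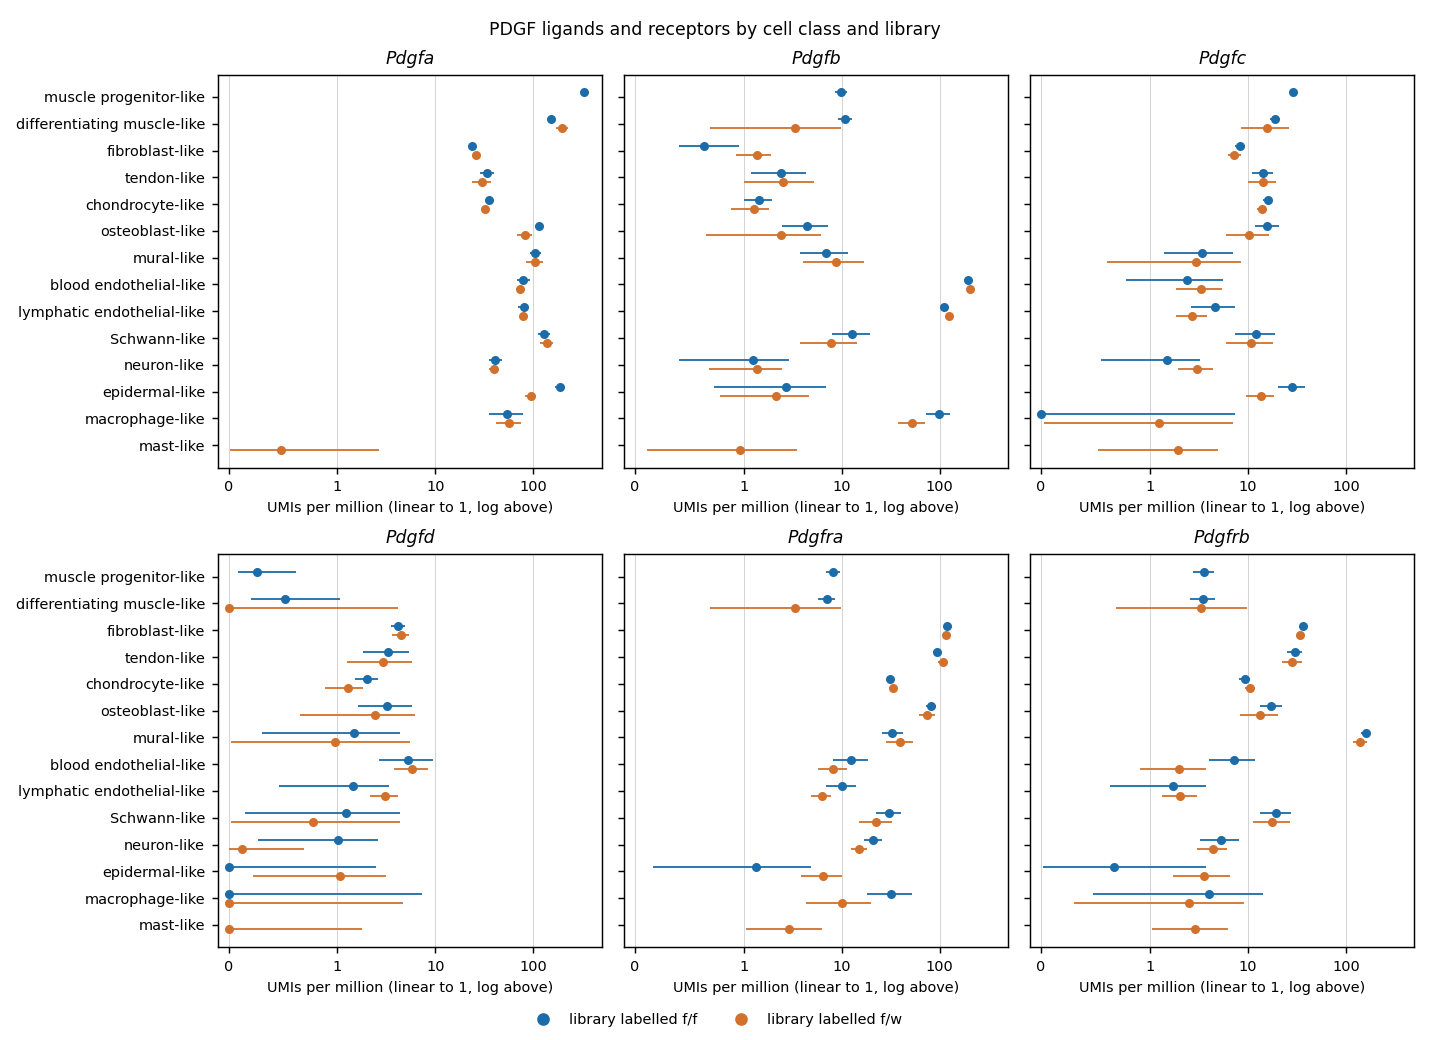
Level of each PDGF gene in each cell class with at least 50 cells in a library, in CPM on an axis that is linear to 1 and logarithmic above, with exact 95% Poisson intervals as bars. Blue points are the library labelled f/f and orange points the library labelled f/w, whose 44 muscle progenitor-like cells are not drawn. Pdgfa reaches 331 CPM in muscle progenitor-like cells, Pdgfb 195 and 206 CPM in blood endothelial-like cells, Pdgfra 119 and 117 CPM in fibroblast-like cells and Pdgfrb 159 and 139 CPM in mural-like cells.

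Pdgfa, which encodes PDGF-A, was highest in muscle progenitor-like cells. These cells held 331 CPM in the library labelled f/f (interval 323 to 339, 6271 UMIs) and 309 CPM in the 44 cells labelled f/w (270 to 352, 223 UMIs). Differentiating muscle-like cells held 151 CPM (145 to 158) and 196 CPM (168 to 227). The step from progenitors to differentiating cells was downward in each library, and the intervals did not overlap in either. Cells that passed both muscle gates were counted as differentiating muscle-like. Epidermal-like cells followed in the library labelled f/f at 187 CPM and stood at 93.7 CPM in the library labelled f/w.

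Further classes held intermediate levels of Pdgfa. Schwann-like cells held 128 and 136 CPM, osteoblast-like cells 114 and 81.3 CPM, mural-like cells 105 and 103 CPM, and both endothelial-like classes 73.2 to 79.3 CPM. In the library labelled f/w the Schwann-like level lay above that of epidermal-like cells with no overlap of the intervals. Several neighbours in this order could not be separated: in the library labelled f/f the intervals of differentiating muscle-like and Schwann-like, of Schwann-like and osteoblast-like, and of osteoblast-like and mural-like cells overlapped. Fibroblast-like cells, the largest class, held 23.5 and 26.0 CPM, and tendon-like and chondrocyte-like cells 29.7 to 34.8 CPM. Macrophage-like cells held 53.7 and 56.2 CPM and neuron-like cells 40.8 and 39.2 CPM. Background was read from erythroid-like cells and from mast-like cells labelled f/w, which had the lowest thinned share of cells with a Pdgfa UMI among classes of 50 cells, so that this choice rests on the value itself. The mast-like cells held 1 Pdgfa UMI in 104 cells of the library labelled f/w (0.481 CPM).

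After each cell was thinned to 2000 UMIs, 44.9% of muscle progenitor-like cells labelled f/f (42.0% to 47.8%) and 45.5% of those labelled f/w (30.4% to 61.2%) had a Pdgfa UMI. At full depth the shares were 96.1% and 97.7%, with medians of 15303 and 15318.5 UMIs per cell. Of the 104 mast-like cells labelled f/w, with a median of 18413.5 UMIs, 0 had one after thinning, which allows a share of cells with a UMI of up to 2.88% when 3 cells are taken as the limit of a count of 0. The erythroid-like cells, 30 and 26 in number, also had 0 after thinning. Among fibroblast-like cells the thinned shares were 4.09% and 4.39%. Thinning left out 609 and 750 kept cells that were shallower.

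Cycling cells, those with at least 2 UMIs of the proliferation genes Mki67 and Top2a, were compared with the rest of their class. In differentiating muscle-like cells labelled f/f, Pdgfa stood at 182 CPM in cycling and 121 CPM in other cells, a log2 difference of 0.60 (0.47 to 0.73). In those labelled f/w the levels were 248 and 150 CPM, a log2 difference of 0.73 (0.28 to 1.18). Muscle progenitor-like cells showed no such gap, with 333 and 323 CPM in the library labelled f/f (log2 0.044, -0.049 to 0.14) and 305 and 327 CPM in the library labelled f/w. In chondrocyte-like cells the difference went the other way, by log2 -0.43 (-0.65 to -0.22) and -0.44 (-0.69 to -0.20).

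Pdgfb, the ligand known for pericyte recruitment, was highest in endothelial-like cells. Blood endothelial-like cells held 195 CPM in the library labelled f/f (177 to 215, 405 UMIs) and 206 CPM in the library labelled f/w (193 to 220, 931 UMIs). Lymphatic endothelial-like cells held 112 CPM (101 to 123) and 123 CPM (117 to 130), below the blood endothelial-like level in each library with no overlap of the intervals. Macrophage-like cells came next with 97.5 CPM (72.1 to 129) in 52 cells and 52.5 CPM (37.8 to 71.0) in 75 cells. Their interval overlapped that of lymphatic endothelial-like cells in the library labelled f/f and not in the library labelled f/w.

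Muscle classes held a low level of Pdgfb, with 9.92 CPM in muscle progenitor-like and 10.9 CPM in differentiating muscle-like cells labelled f/f. In the library labelled f/w these levels rested on 11 and 3 UMIs. Fibroblast-like cells held 0.638 and 1.35 CPM, and the 104 mast-like cells labelled f/w held 0.962 CPM, so the fibroblast-like level lay within the interval of a class taken as background (0.116 to 3.47 CPM).

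Within blood endothelial-like cells, those with at least 2 UMIs from at least 2 of the arterial genes Gja4, Gja5, Sox17 and Dll4 held more Pdgfb than the others. Their levels were 229 against 170 CPM in the library labelled f/f (log2 0.43, 0.14 to 0.72) and 248.8 against 179 CPM in the library labelled f/w (log2 0.48, 0.29 to 0.66). A subset with genes of sprouting tip cells (Apln, Esm1, Angpt2 and Kcne3) held 209 against 183 CPM (log2 0.19, -0.10 to 0.48) and 250 against 172 CPM (log2 0.54, 0.35 to 0.73). The subset with venous genes (Nr2f2, Ephb4 and Aplnr) differed in sign between the libraries, at log2 -0.37 (-0.67 to -0.08) in 48 cells labelled f/f and 0.22 (0.03 to 0.41) in 107 cells labelled f/w. The subsets overlap, and cells inside them were deeper than the rest of the class, with medians of 10940 to 19275 UMIs against 8969.5 to 11620.5 UMIs.

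Pdgfc, a latent ligand, was spread over muscle, skin, skeletal and Schwann-like classes at a lower level. Muscle progenitor-like cells held 29.0 CPM (26.6 to 31.5, 550 UMIs) in the library labelled f/f and 29.1 CPM (18.0 to 44.5, 21 UMIs) in the 44 cells labelled f/w. Epidermal-like cells held 28.2 and 13.5 CPM, differentiating muscle-like cells 18.9 and 15.7 CPM, chondrocyte-like cells 15.9 and 13.9 CPM, tendon-like cells 14.3 and 14.1 CPM, and osteoblast-like cells 15.8 and 10.2 CPM. Schwann-like cells held 12.1 and 10.8 CPM. Fibroblast-like cells held 8.30 and 7.24 CPM, and endothelial-like and mural-like cells 2.41 to 4.58 CPM. The fibroblast-like interval overlapped that of Schwann-like cells in each library and that of osteoblast-like cells in the library labelled f/w. Among the first 6 classes with 50 cells in either library, the intervals of neighbours in the order overlapped at each step. In the library labelled f/f the muscle progenitor-like interval still lay above that of differentiating muscle-like cells (16.6 to 21.3).

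Pdgfd, the other latent ligand, was rare, with 335 UMIs in the library labelled f/f and 298 in the library labelled f/w. Blood endothelial-like cells held 5.30 CPM (2.65 to 9.48, 11 UMIs) and 5.75 CPM (3.76 to 8.43, 26 UMIs), and fibroblast-like cells 4.19 CPM (3.55 to 4.92, 151 UMIs) and 4.45 CPM (3.64 to 5.38, 105 UMIs). The intervals of these classes overlapped, so no order between them could be read. No Pdgfd UMI was found in macrophage-like cells of either library, where 3 UMIs, the limit taken for a count of 0, would be 5.97 CPM in 52 cells labelled f/f and 3.75 CPM in 75 cells labelled f/w.

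The fibroblast-like cells were not uniform for Pdgfd. Cells with at least 2 UMIs of Dpt, which encodes the matrix protein dermatopontin, and Clec3b held 6.90 against 2.40 CPM in the library labelled f/f, a log2 difference of 1.52 (1.03 to 2.04). In the library labelled f/w they held 7.15 against 3.58 CPM, a log2 difference of 0.998 (0.40 to 1.59). Both receptors and Pdgfc showed the opposite sign in the same subset, as given below.

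Pdgfra, the receptor of PDGF-A and PDGF-C, was highest in fibroblast-like cells. They held 119 CPM in the library labelled f/f (116 to 123, 4296 UMIs) and 117 CPM in the library labelled f/w (113 to 122, 2771 UMIs), followed by tendon-like cells at 93.4 CPM (84.8 to 103) and 109 CPM (97.0 to 122). The fibroblast-like and tendon-like intervals overlapped in the library labelled f/w and not in the library labelled f/f. Osteoblast-like cells held 82.4 and 74.6 CPM, mural-like cells 32.9 and 39.2 CPM, and chondrocyte-like cells 31.3 and 33.7 CPM.

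Muscle classes, where Pdgfa was highest, held little Pdgfra. The levels were 8.23 CPM in muscle progenitor-like and 7.07 CPM in differentiating muscle-like cells labelled f/f, and 9.70 CPM (7 UMIs) and 3.35 CPM (3 UMIs) in those labelled f/w. The background class, mast-like cells labelled f/w, held 2.89 CPM (1.06 to 6.28), and the 17 labelled f/f held 8.28 CPM (2.26 to 21.2, 4 UMIs). The muscle levels labelled f/f lay within this last interval, which is too wide to place them at or above background. Set beside the mast-like cells labelled f/w, the muscle progenitor-like interval labelled f/f (6.99 to 9.62) lay higher. The differentiating muscle-like interval labelled f/f (5.73 to 8.63) overlapped theirs. The 6 fibroblast gate genes stood at 177 and 98.4 CPM in muscle progenitor-like cells and at 370.5 and 64.4 CPM in mast-like cells labelled f/f and f/w. Endothelial-like cells held 6.24 to 12.5 CPM and neuron-like cells 15.1 and 21.04 CPM in the libraries labelled f/w and f/f.

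Pdgfrb, the receptor of PDGF-B and PDGF-D, was highest in mural-like cells. They held 159 CPM (142 to 177, 324 UMIs in 141 cells) in the library labelled f/f and 139 CPM (117 to 164, 142 UMIs in 79 cells) in the library labelled f/w. Fibroblast-like cells held 36.7 and 34.4 CPM, tendon-like cells 30.0 and 28.2 CPM, Schwann-like cells 19.4 and 17.8 CPM, osteoblast-like cells 17.3 and 13.2 CPM, and chondrocyte-like cells 9.30 and 10.5 CPM. In blood endothelial-like cells the level was 7.23 CPM (15 UMIs in 8 of 154 cells) and 1.99 CPM (9 UMIs in 8 of 286 cells). Genes of the mural gate stood at 29.4 and 18.4 CPM in the same cells, with all 6 of them detected in the library labelled f/f and 5 of 6 in the library labelled f/w. The 6 fibroblast gate genes, all detected, stood at 276 and 99.8 CPM there. The part of either list in the Pdgfrb level was not tested. Mast-like cells, read as background, held Pdgfrb at 6.21 CPM (3 UMIs) labelled f/f and 2.89 CPM (1.06 to 6.28) labelled f/w. The blood endothelial-like level labelled f/w lay within that interval.

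The 2 receptors divided the fibroblast-like cells differently. In the subset with UMIs of both Osr1, a gene of muscle connective tissue, and the homeobox gene Meox2, Pdgfrb was 20.3 against 38.8 CPM in the library labelled f/f (log2 -0.94, -1.28 to -0.62) and 15.8 against 35.8 CPM in the library labelled f/w (log2 -1.18, -1.79 to -0.63). Pdgfra in that subset differed by log2 0.029 (-0.11 to 0.16) and -0.065 (-0.28 to 0.15). In the Dpt Clec3b subset both were lower, Pdgfra by log2 -0.35 (-0.45 to -0.26) and -0.61 (-0.76 to -0.47) and Pdgfrb by log2 -0.30 (-0.47 to -0.14) and -0.61 (-0.88 to -0.35). Pdgfc was lower there too, by log2 -0.88 (-1.27 to -0.51) and -0.91 (-1.58 to -0.29).

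The subset with at least 2 UMIs of Twist2, a gene of dermal fibroblasts, differed between the libraries for Pdgfrb. In the library labelled f/f it held 46.1 against 30.1 CPM (log2 0.61, 0.46 to 0.77), and in the library labelled f/w 34.5 against 34.3 CPM (log2 0.0092, -0.20 to 0.21). Osr1 and Twist2 are also genes of the fibroblast gate. Pdgfra in the subset with a UMI of the forkhead gene Foxd1 differed by log2 0.092 (-0.02 to 0.20) and 0.03 (-0.082 to 0.14). Cycling chondrocyte-like cells held more Pdgfra than the rest of their class, with 37.8 against 28.1 CPM (log2 0.43, 0.22 to 0.63) and 43.6 against 30.0 CPM (log2 0.54, 0.33 to 0.74).

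**Figure D2:**
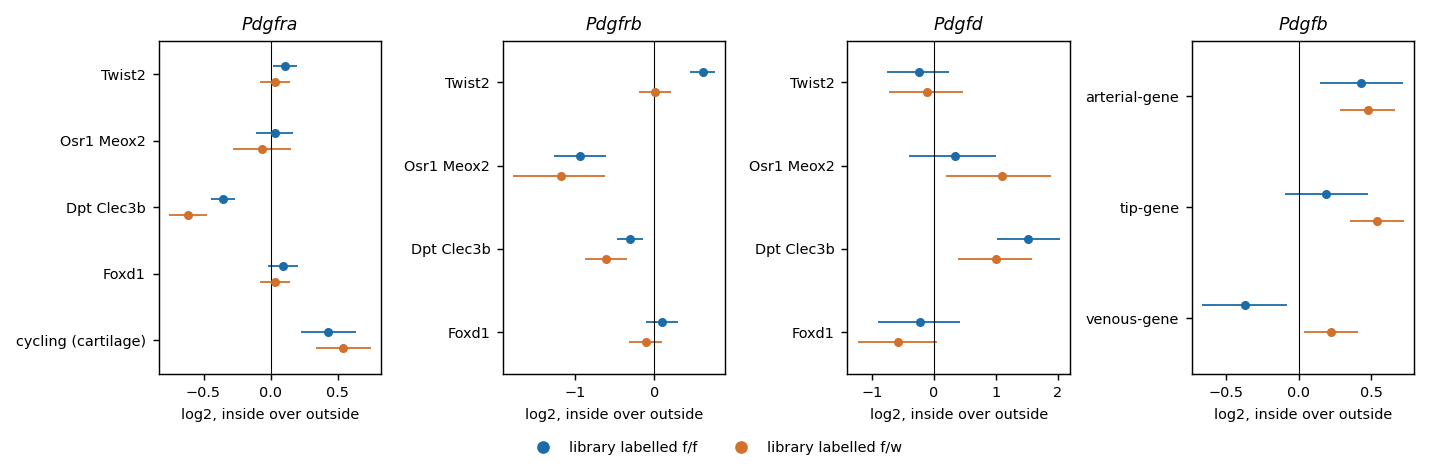
Log2 difference of Pdgfra, Pdgfrb, Pdgfd and Pdgfb between cells inside and outside a marker subset of their class, with exact 95% intervals as bars. Blue points are the library labelled f/f and orange points the library labelled f/w; Pdgfrb is lower in the Osr1 Meox2 subset, at -0.94 and -1.18, and Pdgfd higher in the Dpt Clec3b subset, at 1.52 and 0.998.

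Cells with UMIs of a ligand, a receptor or both were counted. The share with both is set beside the product of the single shares, the value if the UMIs were unrelated. At 2000 UMIs per cell, 49.1% of muscle progenitor-like cells labelled f/f had a UMI of any ligand, 2.22% of any receptor and 0.941% of both (product 1.09%). In fibroblast-like cells the order was turned, with 6.43% and 6.26% for any ligand, 28.0% and 25.1% for any receptor, and 1.80% and 1.54% for both (products 1.80% and 1.57%). Mural-like cells had ligand UMIs in 17.1% and 20.3% of cells, receptor UMIs in 33.6% and 31.6%, and both in 5.00% and 6.33% (products 5.76% and 6.41%). The 6 fibroblast gate genes stood at 1268 and 1156 CPM in mural-like cells, beside 1036 and 1279 CPM for the 6 mural gate genes, and their part in the Pdgfra and Pdgfrb values of these cells was not tested. In blood endothelial-like cells 42.9% and 32.5% had a ligand UMI and 3.25% and 2.80% a receptor UMI.

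Detection of both receptors in the same cell was read in the fibroblast-like and mural-like classes. At 2000 UMIs, Pdgfrb was found in 6.29% (4.64% to 8.30%) of cells with Pdgfra and 7.70% (6.71% to 8.80%) of cells without it in the library labelled f/f, and in 9.95% (7.27% to 13.2%) and 6.75% (5.61% to 8.04%) in the library labelled f/w. The intervals overlapped in each library, and the difference had opposite signs in the libraries. In mural-like cells at full depth, Pdgfrb was found in 48.4% of cells with Pdgfra and 74.5% of cells without it in the library labelled f/f, and in 62.5% and 87.3% in the library labelled f/w, shares that also move with the depth of a cell. They rest on 141 and 79 cells and are given without intervals, so no difference is read from them.

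The UMIs of each gene were placed by class, because a level over all cells depends on which cells a library holds. Muscle progenitor-like cells held 40.4% of all Pdgfa UMIs in the library labelled f/f and 3.85% in the library labelled f/w, and differentiating muscle-like cells 13.2% and 3.02%. For Pdgfc the muscle progenitor-like share was 23.5% and 1.94%. Blood and lymphatic endothelial-like cells held 25.0% and 24.0% of Pdgfb UMIs in the library labelled f/f and 29.8% and 48.1% in the library labelled f/w. The fibroblast-like class held 51.1% and 43.0% of Pdgfra UMIs and 47.3% and 39.7% of Pdgfrb UMIs, and mural-like cells 11.6% and 6.94% of Pdgfrb UMIs.

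**Figure D3:**
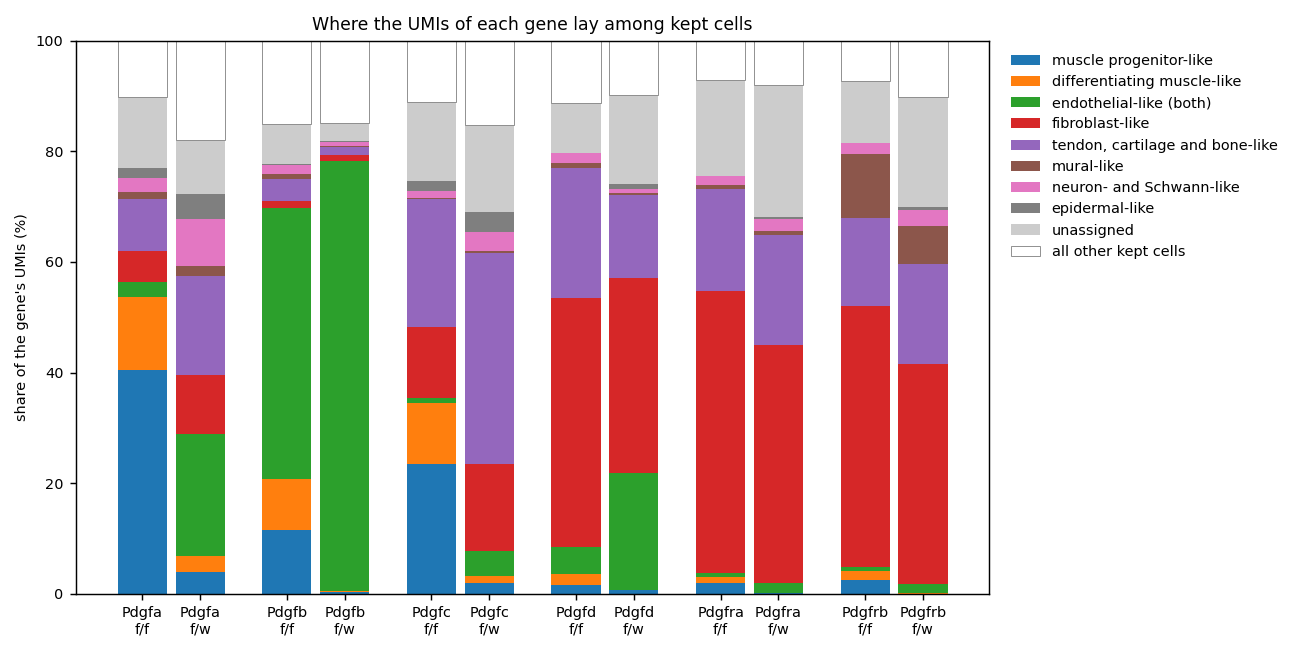
Share of each gene's UMIs, in percent of all its UMIs in kept cells, that lay in each cell class, with 1 stacked bar per gene and library (f/f and f/w as labelled). Muscle progenitor-like cells make 40.4% of the Pdgfa bar labelled f/f and 3.85% of the one labelled f/w, and blood and lymphatic endothelial-like cells make 29.8% and 48.1% of the Pdgfb bar labelled f/w.

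Over all kept cells 3 of the 4 ligands differed more between the libraries than either receptor did. Pdgfa stood at 102 CPM in the library labelled f/f and 47.1 CPM in the library labelled f/w, a log2 ratio of 1.12 (1.08 to 1.16). Pdgfc stood at 15.4 and 8.80 CPM, a log2 ratio of 0.81 (0.71 to 0.91), and Pdgfb at 10.7 and 25.4 CPM, a log2 ratio of -1.25 (-1.33 to -1.16). Pdgfd, at 2.21 and 2.42 CPM, had a log2 ratio of -0.13 (-0.36 to 0.10). The receptors lay closer together, with Pdgfra at 55.5 and 52.4 CPM (log2 0.083, 0.036 to 0.13) and Pdgfrb at 18.5 and 16.6 CPM (log2 0.15, 0.068 to 0.23). Thus 2 of 6 members were at least 1.5-fold higher in the library labelled f/f and 1 was at least 1.5-fold lower, where 5.66% and 13.2% of all 14477 genes with at least 200 UMIs were. Fewer cells of a type and less RNA per cell cannot be told apart in such sums.

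Without the muscle classes the ratios moved. Pdgfa fell to a log2 ratio of 0.45 (0.39 to 0.50) when both muscle classes were left out, and to -0.069 (-0.13 to -0.0028) when unassigned and multi-class cells were also left out. In the unassigned cells Pdgfa stood at 108 and 28.8 CPM, a log2 ratio of 1.91 (1.77 to 2.05). The same unassigned cells held the muscle genes Myog at 44.0 and 4.07 CPM and Pax7 at 20.97 and 0.804 CPM, and their part in the Pdgfa ratio was not tested. Both receptors went the other way, with Pdgfra at log2 0.48 (0.42 to 0.53) and Pdgfrb at 0.60 (0.50 to 0.69) over cells with a class outside muscle. The Pdgfrb ratio, 1.51-fold, lay at the limit of 1.5-fold, and the share of all genes past that limit was not counted in this set. Pdgfb stayed low in the library labelled f/f in each set of cells, at log2 -1.41 (-1.52 to -1.30) in the last one. Each set kept the endothelial-like cells, where Pdgfb was highest. Blood and lymphatic endothelial-like cells made up 1.23% and 1.65% of kept cells labelled f/f and 2.76% and 5.89% of those labelled f/w. The part of these shares in the Pdgfb ratios was not tested.

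**Figure D4:**
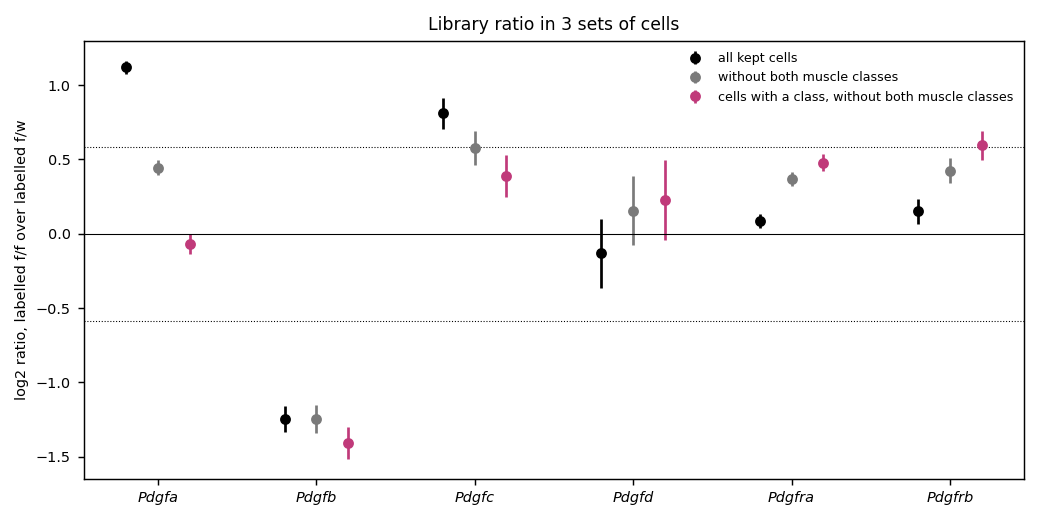
Log2 ratio of each gene's level, library labelled f/f over library labelled f/w, in all kept cells (black), without both muscle classes (grey) and in cells with a class without both muscle classes (magenta), with exact 95% intervals as bars. Dotted lines mark 1.5-fold; Pdgfa goes from 1.12 to -0.069 while Pdgfb stays between -1.41 and -1.25.

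The libraries were then compared in the classes where the members were highest. The log2 ratio of Pdgfra in fibroblast-like cells was 0.023 (-0.046 to 0.093), that of Pdgfrb in mural-like cells 0.19 (-0.10 to 0.49), and that of Pdgfb over all endothelial-like cells -0.028 (-0.15 to 0.088). Pdgfa in muscle progenitor-like cells had a log2 ratio of 0.10 (-0.09 to 0.30), with 44 cells in the library labelled f/w. In the same cells Pdgfc had a log2 ratio of -0.0041 (-0.63 to 0.70), and Pdgfd in blood endothelial-like cells one of -0.12 (-1.28 to 0.95). All 6 intervals included 0, which bounds a difference by counting error but does not show that the levels were equal.

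Counted by class among genes with at least 200 UMIs there, 0 of 5 members passed 1.5-fold in fibroblast-like cells, where 3.47% of genes were higher and 2.78% lower in the library labelled f/f. The counts were 0 of 4 in chondrocyte-like cells (1.39% and 1.52% of genes), 0 of 2 in differentiating muscle-like cells (8.97% and 2.72%), 0 of 2 in neuron-like cells (1.17% and 1.1%) and 0 of 2 in endothelial-like cells (2.3% and 1.16%). Over all cells outside the muscle classes, 0 of 6 were higher and 1, Pdgfb, was lower, where 4.37% and 9.74% of genes were. Members under 200 UMIs in a class are not in these counts. With at least 20 UMIs in each library, some passed 1.5-fold: Pdgfb in fibroblast-like (log2 -1.09), Pdgfd in chondrocyte-like (0.63), and Pdgfra (0.70) and Pdgfrb (0.89) in endothelial-like cells. Pdgfb in chondrocyte-like (0.15), Pdgfc in endothelial-like (0.39) and Pdgfrb in neuron-like cells (0.27) did not.

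In epidermal-like cells 2 of the 2 members with at least 20 UMIs in each library were at least 1.5-fold higher in the library labelled f/f, where 11.3% of 6362 genes were higher and 3.41% lower. This lower limit was used for a count in this class alone, the class of the 2 ratios that follow. The count therefore restates those ratios and is no separate support for them. Pdgfa stood at 187 CPM (165 to 210, 94 cells) in the library labelled f/f and 93.7 CPM (82.7 to 106, 128 cells) in the library labelled f/w, a log2 ratio of 0.99 (0.74 to 1.24). Pdgfc stood at 28.2 CPM (20.3 to 38.1) and 13.5 CPM (9.58 to 18.6), a log2 ratio of 1.06 (0.39 to 1.73). Under the limit, Pdgfra went the other way with 2 and 18 UMIs (log2 -2.26, -5.41 to -0.19). Pdgfrb had 1 and 10 UMIs (log2 -2.41, -7.85 to 0.40), Pdgfb 4 and 6 UMIs (log2 0.33, -1.94 to 2.40) and Pdgfd 0 and 3 UMIs. The median depth of these cells was 13496 and 19598 UMIs. The basal keratins did not share a direction, with Krt5 at 909 and 899 CPM, Krt14 at 2048 and 2842 CPM and Krt15 at 788 and 558 CPM. The suprabasal keratins Krt10 and Krt1 stood at 135 and 201 CPM and at 103 and 118 CPM. The proliferation gene Mki67 stood at 107 and 65.2 CPM. The part of these genes in the ratios was not tested.

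**Figure D5:**
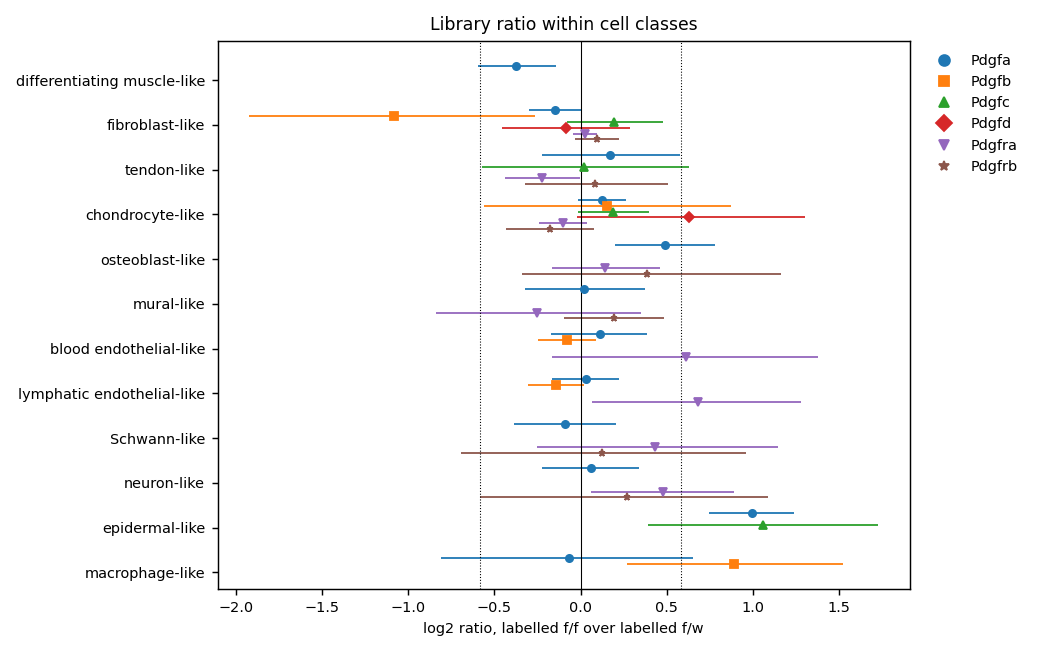
Log2 ratio of each PDGF gene, library labelled f/f over library labelled f/w, within each cell class where the gene had at least 20 UMIs in both libraries, with exact 95% intervals as bars and dotted lines at 1.5-fold. Of 39 pairs of gene and class, 9 have an interval off 0, where 27.4% of all such pairs over all genes do, with Pdgfa and Pdgfc in epidermal-like cells at 0.99 and 1.06.

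The other genes of PDGF signalling were read from 3 fixed lists of 44 genes, all of which passed 200 UMIs. Over all kept cells 3 were at least 1.5-fold higher in the library labelled f/f and 3 at least 1.5-fold lower, against 5.66% and 13.2% of all genes, and their median log2 ratio was -0.027 against -0.016 over all genes. Of 11 genes for ligand processing and binding, 0 were higher and 2 lower. The lowest was Plau, the urokinase protease, at 3.97 and 15.4 CPM (log2 -1.96), with Furin, a protease of the secretory pathway, at 19.4 and 30.7 CPM (log2 -0.67), and the highest Thbs1, a matrix glycoprotein, at log2 0.18. Of 23 receptor adaptors and enzymes, 2 were higher and 1 lower, from Pik3cb, a catalytic subunit of phosphoinositide 3-kinase, at log2 -0.96 to the kinase Map2k1 at 0.80. Of 10 genes that shut receptor signalling off, 1 was higher, Spry4 at 27.6 and 17.9 CPM (log2 0.62), and 0 lower, with the phosphatase gene Dusp6 the lowest at log2 -0.50. These ratios also moved over cells with a class outside muscle, to log2 0.38 for Map2k1, -0.35 for Furin, 0.52 for Thbs1 and -0.28 for Dusp6. There Plau stood at log2 -1.78, Pik3cb at -0.64 and Spry4 at 0.66. The list counts were not repeated in that set.

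Patterns over the classes were compared by Pearson's r of log2(CPM + 1) over 26 units, each a class of at least 50 cells in 1 library, among 12629 genes. The units share libraries and deep or shallow classes, so r is a description. The receptors resembled each other (r = 0.76), while the other 14 pairs of members ranged from -0.47 for Pdgfb and Pdgfc to 0.57 for Pdgfd and Pdgfra. The ligand and receptor Pdgfb and Pdgfrb had r = -0.33, and Pdgfa and Pdgfra r = -0.16.

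Pdgfra was most like the cadherin gene Cdh11 (r = 0.94), followed by Twist1, which is a gate gene of the fibroblast-like class, Wnt5a, Aebp1 and Ctsk. Pdgfrb was most like Crispld2 (0.90), Cd248, Tbx18, Rbpms2 and Prrx1, the last also a gate gene. Pdgfb was most like Sh3tc1 (0.90), Rasgrp3, Cd93, Dusp3 and Klhl6. Pdgfd was most like Rai14 (0.89), Aqp1, Pdzd2, Cdr2 and Lrrc15, Pdgfc like Cdk2ap1 (0.85), Gtf2h3, Ak4, Rps26 and Net1, and Pdgfa like Mrpl52 (0.82), Pbk, Lifr, Plcb3 and Ppp5c.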

How the data were processed

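Libraries were made with 10x Genomics 3′ chemistry (v3.1 kits per the labels). The authors mapped reads to mm10 and made cell calls and UMI counts with Cell Ranger (version 5.0.0 in the matrix header and 3.1.0 in the submitters' processing notes), and deposited the raw counts of both libraries in 1 matrix. Barcode suffixes were assigned to samples by the cell number in each sample's own deposited summary, which also gives sequencing saturation in percent (39.5% for the library labelled f/f and 45.9% for the library labelled f/w). The aggregation had down-sampled reads.

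Barcodes farther than 2 SD from their library's mean in UMIs or genes (log10 scale), or with over 10% mitochondrial UMIs, were dropped. A cell that passed 1 main marker gate took its class, and cells passing several (4.50% and 5.04% of kept cells) were left out of classes. Cells passing both muscle gates and no other main gate were the exception and were called differentiating muscle-like. The fibroblast gate was used only for cells that passed no main gate. Lymphatic endothelial-like cells were split from the endothelial-like cells by a further gate. Doublets were otherwise not called. UMIs were summed per class and library and scaled to CPM. Intervals of levels are exact Poisson, of shares Clopper-Pearson, and of ratios come from the exact split of the counts, and they were checked on simulated data. Genes called past a fold of 1.5 had at least 200 UMIs. Of the gene identifiers, 32235 of 32285 were found in GENCODE M21 (GRCm38). Genes named are the 6 members, Srsf2, marker genes, the extremes of the pathway lists, and for each member the 5 genes with the highest r among those with at least 500 UMIs. Furin, Krt14, Mki67 and other genes given beside a result were chosen after their values were seen. The members and lists were chosen with earlier results of these data known. Python 3.11.15, NumPy 2.4.6, SciPy 1.17.1, pandas 2.3.3 and matplotlib 3.10.9 were used. Alternatives changed the cell limits, the denominator, the gates, the filter on low genes and the scaling.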

Additional observations from a re-analysis of the deposited data

Results flagged for a closer look

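Library ratios of 1 gene whose intervals lay off 0 in opposite directions in 2 classes were picked out among pairs of gene and class with at least 20 UMIs in both libraries. Of 39 such pairs 9 had an interval off 0, where 27.4% of all gene and class pairs did. The differences between the classes were not tested, and each ratio is labelled f/f over labelled f/w. For Pdgfa the log2 ratio was 0.49 (0.20 to 0.78) in osteoblast-like and 0.99 (0.74 to 1.24) in epidermal-like cells, against -0.37 (-0.60 to -0.14) in differentiating muscle-like cells. For Pdgfb it was 0.89 (0.27 to 1.52) in macrophage-like cells, against -1.09 (-1.93 to -0.27) in fibroblast-like cells, where the 5 endothelial gate genes summed to 23.5 and 32.7 CPM. The fibroblast-like levels, 0.638 and 1.35 CPM, lay within the interval of the background class, mast-like cells labelled f/w (0.116 to 3.47 CPM). For Pdgfra it was 0.69 (0.06 to 1.28) in lymphatic endothelial-like and 0.48 (0.06 to 0.89) in neuron-like cells, against -0.22 (-0.44 to -0.0047) in tendon-like cells. The 6 fibroblast gate genes, all detected, summed to 136 and 111 CPM in the lymphatic endothelial-like cells and to 314 and 236 CPM in the neuron-like cells. In the tendon-like cells they summed to 1314 and 1782 CPM. The part of these genes in the 3 ratios was not tested.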

How the results depend on the processing

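No paired analysis was possible because each group is 1 library. With both muscle classes left out (this and the next alternative were added after the data had been seen), the log2 ratios over all kept cells became 0.45 for Pdgfa, 0.58 for Pdgfc, 0.15 for Pdgfd, 0.37 for Pdgfra and 0.42 for Pdgfrb. With only classed cells they became -0.069 for Pdgfa, a reversal whose cause was not tested, -1.41 for Pdgfb, 0.39 for Pdgfc, 0.23 for Pdgfd, 0.48 for Pdgfra and 0.60 for Pdgfrb. A mitochondrial limit of 5% gave 1.04 for Pdgfa, -1.44 for Pdgfb, 0.17 for Pdgfra and 0.24 for Pdgfrb.

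Leaving haemoglobin, mitochondrial and ribosomal protein genes out of the denominator raised the levels in the highest class with 50 cells (labelled f/f, then f/w) to 502 and 308 CPM for Pdgfa, 279 and 297 CPM for Pdgfb, 161 and 158 CPM for Pdgfra and 219 and 190.4 CPM for Pdgfrb, and to 44.0 CPM for Pdgfc in the library labelled f/f. Stricter gates gave 32.0 CPM for Pdgfc labelled f/f, 113 CPM for Pdgfra labelled f/w, and 193 and 181 CPM for Pdgfrb. Without the 2 SD limits, and with cells of several gates resolved, all 18 and all 12 values stayed inside the interval of the reported value. The top class was the same in 53 of 60 cases. In 5 of the other 7 its cells labelled f/w had fallen to between 38 and 45, under the minimum of 50, and the other 2 concerned Pdgfd labelled f/f, where the top class is uncertain at this depth. With a filter of 1 UMI in each library in place of 200, 2443 genes were higher and 5087 lower past 1.5-fold, against 820 and 1907; TMM scaling, with a shift of -0.057 on the log2 scale, kept both counts within 1.5 times. Depth limits Pdgfd and the values from the 44 and 55 muscle cells labelled f/w.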

Other observations

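Classes under 50 cells in a library were left out of the order of classes and of the comparison of patterns. The 44 muscle progenitor-like cells labelled f/w were compared all the same. Erythroid-like cells and the 17 mast-like cells labelled f/f were read as background. Neural progenitor-like cells numbered 10 in the library labelled f/f and 19 in the library labelled f/w, and held 10 and 11 Pdgfra UMIs, or 132 CPM (63.3 to 243) and 65.1 CPM (32.5 to 116). Pdgfra is known as a marker of oligodendrocyte precursors, and the Olig1 Olig2 subset of these cells differed from the rest by log2 0.60 (-1.66 to 2.68) and 0.53 (-2.71 to 2.81), so no difference was detectable at this depth. Erythroid-like cells, 30 and 26 in number, held 2 and 0 Pdgfa UMIs and 1 and 5 Pdgfra UMIs. Cells that passed several gates held Pdgfa at 113 and 68.0 CPM, Pdgfb at 14.2 and 28.9 CPM and Pdgfra at 41.7 and 33.2 CPM.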
